A study of Mus musculus with 2 samples.

Results

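The genes described here are 8 mouse host genes of small nucleolar RNAs (snoRNAs): Snhg1, Snhg3, Snhg6, Snhg8, Snhg11, Snhg12, Snhg20 and Gas5. They were chosen by gene name, and all 8 were found among the 55536 annotated genes. Total RNA was sequenced from hippocampal tissue of female mice of the B6CASTF1/J strain, a hybrid of C57BL/6J and CAST/EiJ parents, aged 36 days and with 300 ng of RNA per library. There is 1 group of 2 libraries, numbered as biological replicates 1 and 2, and no treatment or other condition. The labels give both libraries the same donor identifier, so the spread between them may be technical. Summed expected counts were 32443493 in replicate 1 and 30125178 in replicate 2.

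A snoRNA host gene carries snoRNA sequence in its introns. Splicing frees the intron, exonucleases trim it, and the snoRNA survives because it is bound by its proteins. Box C/D snoRNAs guide methylation of ribosomal RNA, and H/ACA snoRNAs guide its pseudouridylation or take part in its processing. A scaRNA is a related RNA of the Cajal body that guides modification of spliceosomal RNAs. The spliced RNA left over from many host genes holds no long reading frame and is removed by nonsense-mediated decay when it is translated, and several hosts start with a run of pyrimidines, as do the mRNAs of ribosomal proteins.

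GENCODE M21 places 30 snoRNA or scaRNA genes inside the 8 hosts on the same strand, at 28 separate places since 2 of these RNAs are annotated in 2 versions. Gas5 holds 10 of the genes, Snhg1 8, Snhg12 5, Snhg3 and Snhg11 2 each, and Snhg6, Snhg8 and Snhg20 1 each. The sequences show which class of small RNA each host carries and are those of the GENCODE M21 transcripts, 5′ to 3′ with T for U. Capitals mark the C box (TGATGA, starting within the first 25 bases) and the D box (CTGA, starting within the last 15), or in the others an ACA starting within the last 10 bases. Only the strand of the RNA was searched, and an RNA with both C and D boxes was put in that class whether or not it had an ACA. From Gas5 and Snhg1, the hosts with the most genes, and from Snhg6, the box C/D examples are these.
Gm22357: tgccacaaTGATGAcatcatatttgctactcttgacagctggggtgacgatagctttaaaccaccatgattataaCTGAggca
Snord80: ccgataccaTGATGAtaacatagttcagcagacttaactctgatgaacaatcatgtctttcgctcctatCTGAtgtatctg
Gm24453: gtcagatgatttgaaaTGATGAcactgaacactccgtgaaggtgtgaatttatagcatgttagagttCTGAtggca
Snord87: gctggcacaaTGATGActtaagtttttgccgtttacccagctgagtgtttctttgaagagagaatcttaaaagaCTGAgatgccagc
Gm22357 lies at chr1:161036057-161036139 and Snord80 at chr1:161037601-161037681 in Gas5. Gm24453 lies at chr19:8724868-8724943 in Snhg1, and Snord87 at chr1:9942463-9942549 on the minus strand in Snhg6.

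The small RNAs with the most counts in Snhg3 and Snhg20, and the one of Snhg8, end with an ACA box.
Snora73b: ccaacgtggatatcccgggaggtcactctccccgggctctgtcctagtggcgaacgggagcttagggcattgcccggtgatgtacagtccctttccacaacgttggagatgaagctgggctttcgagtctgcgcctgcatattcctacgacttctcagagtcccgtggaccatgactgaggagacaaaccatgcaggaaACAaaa
Snora73a: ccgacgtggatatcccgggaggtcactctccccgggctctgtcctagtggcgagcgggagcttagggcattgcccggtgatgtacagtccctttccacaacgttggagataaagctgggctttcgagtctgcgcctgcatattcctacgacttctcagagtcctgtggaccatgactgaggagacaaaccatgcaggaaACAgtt
Gm26083: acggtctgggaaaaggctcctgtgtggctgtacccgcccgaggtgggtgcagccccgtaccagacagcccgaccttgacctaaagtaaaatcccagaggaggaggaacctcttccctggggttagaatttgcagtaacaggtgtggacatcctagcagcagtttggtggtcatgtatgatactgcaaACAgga
Snora24: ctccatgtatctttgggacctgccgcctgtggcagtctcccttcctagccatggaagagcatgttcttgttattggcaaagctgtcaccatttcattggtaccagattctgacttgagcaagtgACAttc
Snora73b (chr4:132352322-132352526, minus strand) and Snora73a (chr4:132352775-132352979, minus strand) are both copies of the U17 RNA, which takes part in processing of the small subunit's ribosomal RNA. They are 205 bases long and differ at 7 positions (96.6% identity), so the division of reads between them is uncertain. Gm26083, a scaRNA, lies at chr11:117077243-117077435 in Snhg20, and Snora24 at chr3:123507937-123508066 on the minus strand in Snhg8.

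The hosts differed in the class they hold. Both boxes of the C/D class were found in 8 of 10 genes in Gas5, 6 of 8 in Snhg1 and in the single gene of Snhg6. An ACA box was found in all genes of Snhg3, Snhg8, Snhg11 and Snhg20. Snhg12 was mixed, with 3 ACA genes, 1 C/D gene and 1 with neither pattern. Over all 30 genes, 16 had C and D boxes, 9 an ACA box and 5 neither. Of the 1558 snoRNA and scaRNA transcripts of the annotation, 312 had C and D boxes, 734 an ACA box and 512 neither. A match is a description of the letters, and an RNA without these exact letters may still belong to a class: Snord22, the RNA (U22) for which Snhg1 was first known as a host, had neither pattern.

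**Figure D1:**
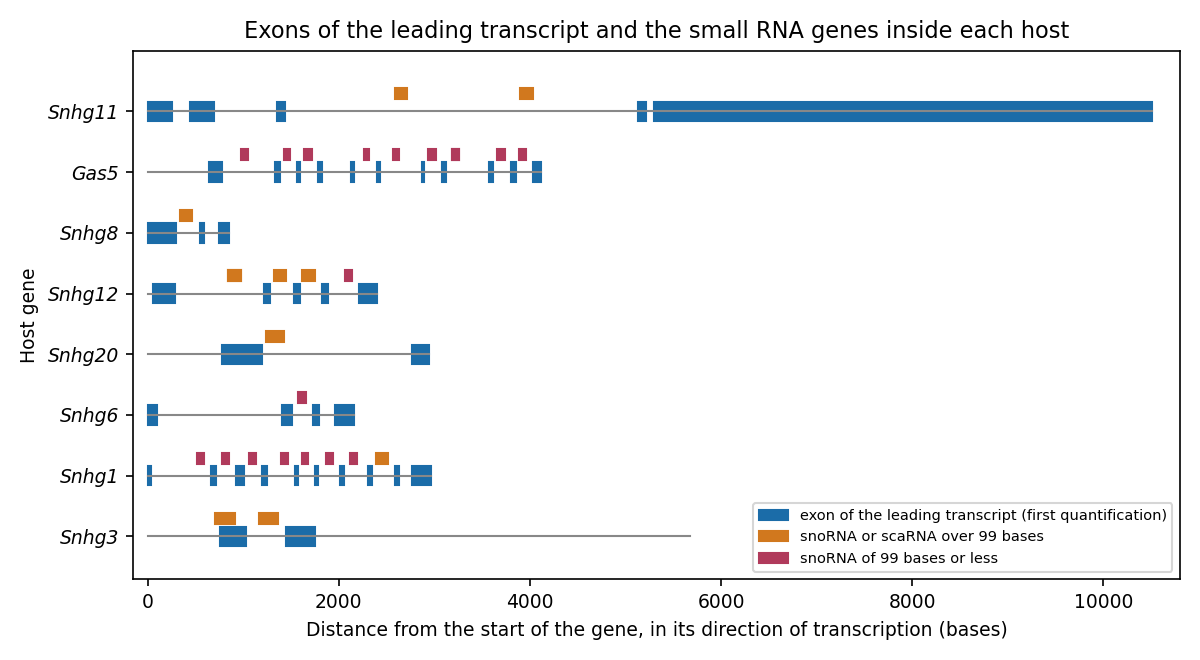
Exons of the leading transcript of each host gene (blue, the transcript with the highest TPM in the first quantification) and the snoRNA or scaRNA genes inside it (orange over 99 bases, dark red 99 bases or less), drawn by distance from the gene's start in bases. The small RNAs of Gas5 and Snhg1 alternate with exons, and the last exon of Snhg11 is by far the longest in the plot.

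Levels are given in TPM, a share of all transcripts that corrects for RNA length and so allows genes to be compared. The authors deposited 2 quantifications, and a level without further mention comes from the first. All 8 hosts reached the detection limit of 1 TPM in each library, at means between 9.14 and 211 TPM with a median of 16.7. For comparison, the median was 2.59 TPM over the 699 detected long non-coding genes, 8.71 over the 34 of these with a snoRNA inside, 24.4 over the 246 detected protein-coding genes with a snoRNA inside, and 12.8 over all 14590 detected genes. In bulk tissue, fewer cells expressing a gene and less RNA per cell cannot be told apart.

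Snhg11 (chr2:158375638-158386145, plus strand) had the highest level of the hosts. It was at 210.75 TPM in replicate 1 and 212.13 TPM in replicate 2 (211 ± 0.976, SD, n = 2), from 23920 and 22266 counts, and ranked 304 among all genes. GENCODE M21 calls it protein-coding, while RefSeq lists a long non-coding RNA. It is a common neuronal transcript in the mouse brain. Its level was more than that of any other host in both libraries and in both quantifications.

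Gas5 (growth arrest specific 5, chr1:161034422-161038539, plus strand) was first known as an RNA that accumulates in growth-arrested cells. It was at 99.05 and 101.07 TPM (100.1 ± 1.43, SD, n = 2), from 1491 counts in each library, and ranked 874. Among detected long non-coding genes with a snoRNA inside, Gas5 came after only 2 others by TPM, Snhg14 at 657 ± 51.4 TPM and Rian at 451 ± 11.7 TPM, the hosts of the large imprinted snoRNA clusters. Both libraries of Gas5 lay well above those of the 6 hosts that follow.

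Snhg8 (chr3:123507552-123508404, minus strand), the shortest of the genes, was at 19.46 and 21.5 TPM (20.5 ± 1.44), from 167.78 and 175 counts. Snhg12 (chr4:132308623-132311024, plus strand), which carries Snora16a, Snora44, Snora61 and Snord99, was at 20.16 and 18.81 TPM (19.5 ± 0.955), from 336.71 and 328.18 counts. The values of this pair overlapped, so their order is not resolved by these libraries.

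Snhg20 (chr11:117076008-117078955, plus strand) was at 14.94 and 12.77 TPM (13.9 ± 1.53), from 225.13 and 182.83 counts. Snhg6 (chr1:9941959-9944118, minus strand) was at 12.61 and 13.32 TPM (13.0 ± 0.502), from 129 and 130 counts. These 2 hosts also overlapped. Snhg1 (chr19:8723475-8726443, plus strand) followed at 10.59 and 9.69 TPM (10.1 ± 0.636), from 209.81 and 180.72 counts. Snhg3 (chr4:132348014-132353686, minus strand) was lowest at 9.08 and 9.19 TPM (9.14 ± 0.0778), from 88.02 and 81.14 counts. Snhg1 and Snhg3 did not overlap, but the gap between their nearest libraries was small beside the counting error of so few reads. The deposited TPM bounds of Snhg1 were 10.9 to 15.8 in replicate 1 and 9.54 to 14.4 in replicate 2. Those of Snhg6, 10.5 to 15.1 and 11.0 to 15.8, overlapped them, so the order of Snhg1 and Snhg6 is not resolved either. The Snhg1 level in replicate 1 lay below its own bounds.

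The second quantification put every host higher in TPM and changed their order. Snhg11 was at 332 and 330.4 TPM there and Gas5 at 225 and 228. Snhg20 moved from place 5 to place 3, at 98.4 and 117 TPM, and Snhg1 from place 7 to place 4, at 40.3 and 42.9 TPM. Snhg12 at 29.3 and 28.7 TPM overlapped Snhg8 at 22.1 and 33.9, which overlapped Snhg6 at 18.8 and 24.1. Snhg3 was again lowest at 10.9 and 14.0 TPM, apart from Snhg6. Small structural RNAs took 41.7% and 43.2% of first-quantification TPM but 0.113% and 0.162% in the second, and TPM shares a fixed total, so levels should be set side by side within a quantification. With those RNAs and the spike-ins left out of the total, first-quantification levels were 1.74 times higher in replicate 1 and 1.78 times in replicate 2 for every gene. TPM also divides counts by an effective length. In the second quantification this lay 339 (replicate 1) and 325 bases (replicate 2) below the length of long RNAs, against 99 in the first. A larger cut raises the TPM of short RNAs most. The transcript Snhg20-201, 459 bases long, had effective lengths of 139 and 144 bases there. The part of effective length in the changed order was not tested.

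**Figure D2:**
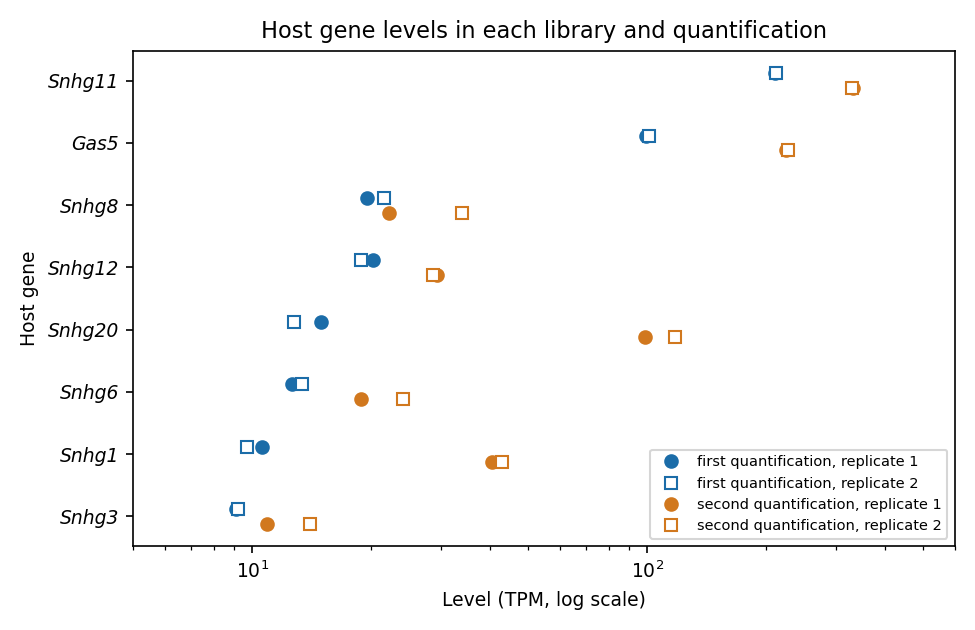
Level of each host gene in TPM (log scale) in replicate 1 (circles) and replicate 2 (squares), from the first (blue) and second (orange) quantification. Snhg20 and Snhg1 move furthest to the right between the quantifications, to means of 108 and 41.6 TPM.

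The quantifications were also compared in counts, which do not share that total. Counts were summed over both libraries and set relative to the median gene, and 2 of the 7 hosts compared were past 1.5-fold, against 2.89% of 12538 genes. Snhg8 was 2.63-fold lower in the second quantification (61 and 79 counts) and Snhg20 1.71-fold higher (372 and 381 counts). Snhg3 had a mean count under the minimum of 100 used for this comparison, and its 45 and 56 counts in the second quantification were 1.80-fold lower. Gas5 was within 1.02-fold, at percentile 36.1 of all genes. The other 4 were within 1.5-fold but toward the tails of all genes: Snhg1 at percentile 97.6, Snhg11 at 94.3, Snhg6 at 8.02 and Snhg12 at 6.52.

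For Snhg20 the counts of the host and of the scaRNA inside it added up to nearly the host's count in the second quantification. Counts in this paragraph are raw and not set relative to the median gene, which lay 0.11 higher in the second quantification (log2). In replicate 1 the first quantification gave 225.13 counts to Snhg20 and 144.87 to Gm26083, a sum of 370, and the second gave 372 to Snhg20 and 0 to Gm26083. In replicate 2 the first gave 182.83 and 189.17, a sum of 372, and the second 381 and 0. Snhg1 showed the same arithmetic with Snord22: 209.81 and 50.19 counts made 260 in replicate 1, against 261 for Snhg1 in the second, and the sum in replicate 2 was 237 against 256. In Gas5 and Snhg6 the small RNAs held 0 counts, so the sum is that of the host alone. The second quantification held 1.05 and 1.07 of it in Gas5, and 0.938 and 0.962 in Snhg6. The sums lay further apart in the remaining hosts. In Snhg3, host and Snora73 counts summed to 1679 and 2091, while the second quantification held 45 and 56 counts for Snhg3 and none for either Snora73 gene. The second quantification held 0.361 and 0.451 of the sum for Snhg8, 0.840 and 0.895 for Snhg12, and 1.20 in both libraries for Snhg11. Every snoRNA and scaRNA gene inside the 8 hosts had 0 counts in the second quantification, where only 4 of the 1558 such genes in the annotation had any. These 0 values therefore say little of the level of the small RNAs.

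The division of each host's TPM among its transcripts also differed between the quantifications. The 8 hosts have 78 annotated transcripts, of which 53 had a value above 0 in the first set of estimates and 50 in the second. The leading transcript was the same in 5 of 8 hosts, against 75.1% of 11955 detected genes with at least 2 transcripts. In Snhg20 the leading transcript was Snhg20-202, spliced without the scaRNA, at 86.4% ± 6.56 of the gene's TPM in the first quantification. The second put Snhg20-201 first, at 73.5% ± 7.11. Its exon holds Gm26083 whole, and this transcript was at 0 in the first. By counts, Snhg20-201 held less of the gene in the second quantification, 159 of 372 in replicate 1 and 213 of 381 in replicate 2.

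The share of a host's TPM in transcripts whose exons hold a whole snoRNA or scaRNA was summed for the 6 hosts with such transcripts. Between the quantifications the mean share differed for all 6 by more than the SD of the libraries in the first. The values of the 2 quantifications overlapped in Snhg8 and Snhg11, and the difference was largest for Snhg20, Snhg1 and Snhg12. For Snhg20 the share was 9.42% ± 0.635 in the first and 75.9% ± 6.47 in the second (SD, n = 2 here and below). For Snhg1 it was 27.8% ± 4.96 and 69.2% ± 1.51. For Snhg12 it was 37.1% ± 1.51 and 64.8% ± 0.640. The shares of both libraries lay higher in the second quantification for each of these hosts. They are shares of TPM and not of reads. Snhg1-213, 495 bases long, took 57.0% ± 3.01 of Snhg1 TPM in the second quantification. By counts it held 62.5 of 261 in replicate 1 and 70.7 of 256 in replicate 2.

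The differences were smaller in Gas5, Snhg11 and Snhg8. In Gas5, 24.4% ± 0.478 of first-quantification TPM and 20.2% ± 0.0726 in the second lay in transcripts that hold a whole snoRNA, and the spliced Gas5-210 led in both at 46.9% ± 0.341 and 37.3% ± 0.0281. In Snhg11 the share was 3.65% ± 0.237 and 3.92% ± 0.294, and Snhg11-201 led at 77.9% ± 1.96 and 89.2% ± 0.779. In Snhg8 the share was 3.74% ± 2.13 and 6.15% ± 5.52, with a wide spread between the libraries in the second. In replicate 2 alone the Snhg8 share was 2.23% in the first and 2.25% in the second. No annotated transcript of Snhg3 or Snhg6 has an exon that holds a whole snoRNA.

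**Figure D3:**
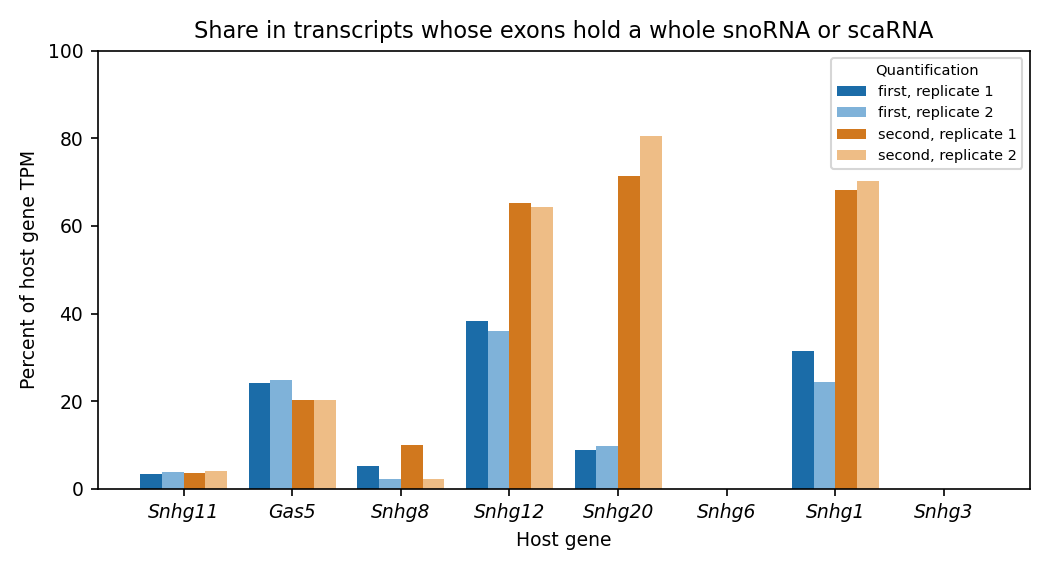
Percent of each host gene's TPM in transcripts whose exons hold a whole snoRNA or scaRNA, by quantification (blue first, orange second) and replicate (dark 1, light 2). Snhg1, Snhg12 and Snhg20 go from at most 38.2% to at least 64.3% between the quantifications, and Snhg3 and Snhg6 have no such transcript.

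The small RNAs themselves could be followed only above a length limit. Of the 30 genes, 19 are 99 bases or less, have an effective length of 0 in the first quantification and hold 0 counts, as do all 462 snoRNA and scaRNA genes of that length in the annotation. A 0 for these says nothing of the RNA's level, and it covers all 10 genes in Gas5, 7 of 8 in Snhg1 and the 1 in Snhg6. Of the 11 longer genes, 8 had counts.

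Snora73b was at 370.3 and 502 TPM (923.65 and 1192.14 counts) and Snora73a at 268 and 344 TPM (667.32 and 817.72 counts), both above their host Snhg3 at 9.08 and 9.19 TPM. Gm26083 had 65.5 and 89.8 TPM and Snord22 79.0 and 93.0 TPM, above Snhg20 and Snhg1 in this quantification. Snord22 rests on 50.19 and 56.28 counts over an effective length of 27 bases, and its host had more counts. In the second quantification all 4 of these small RNAs were at 0, so the order of host and small RNA can be read in the first alone. A 0 there says little of their level. The 30 genes are 60 to 205 bases long, shorter than the 339 and 325 bases taken off the length of long RNAs in that quantification. Snora44 in Snhg12 had 12.29 and 31.72 counts, and Gm25129 in Snhg11 12 and 15. Snora24 in Snhg8 had 1.22 and 0 counts and Snora61 in Snhg12 0 and 2.1, too few to place. The ratio of a small RNA to its host cannot be carried over to Gas5 or Snhg6, whose small RNAs are under the limit.

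**Figure D4:**
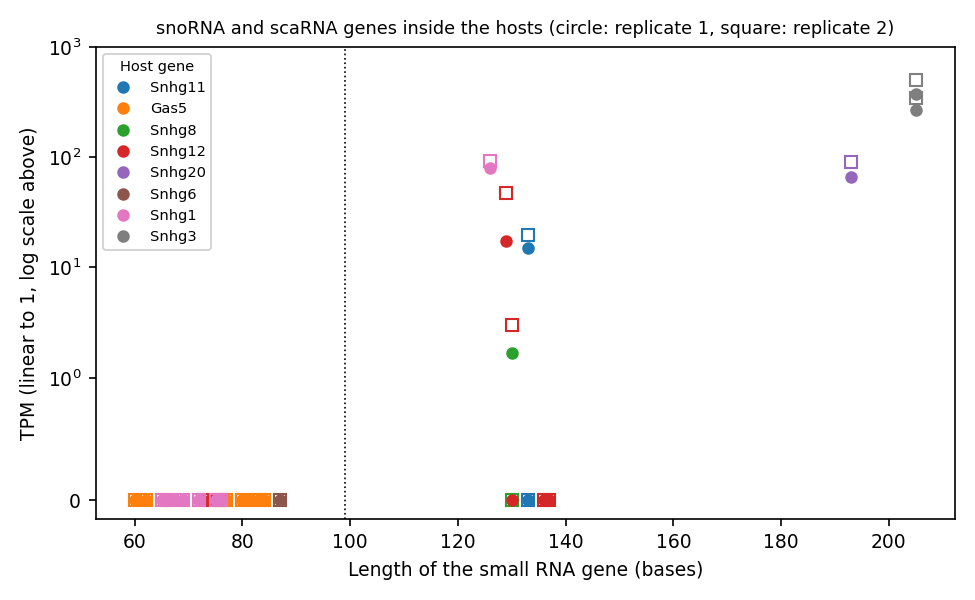
TPM of the 30 snoRNA and scaRNA genes inside the hosts (first quantification, linear to 1 and log above) against their length in bases, in replicate 1 (filled circles) and replicate 2 (open squares), coloured by host. All genes left of the dotted line at 99 bases sit at 0, and the pair of Snhg3 at 205 bases is highest.

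Between the libraries the hosts differed little. Log2 ratios are replicate 2 over replicate 1 after TMM scaling of counts, and with 1 library on each side there is no test. A ratio past 0.32 in either direction was counted as apart. Among the 7 hosts that reached a mean count of 100, 0 were past it, against 6.21% of 12651 genes, and 0 were past 2-fold, against 0.466%. Ratios ran from -0.22 (Snhg20) to 0.14 (Snhg8), with 4 hosts higher and 3 lower in replicate 2 and a median of 0.04, beside -0.01 over all genes. The most deeply counted host, Snhg11, had a ratio of -0.03 with a 95% exact binomial interval of -0.05 to 0.00. No interval of the 8 hosts excluded 0, and these intervals cover counting error only.

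The direction of these small ratios depended on the scaling. With the external spike-in RNAs (ERCC) as the reference all ratios moved up by 0.26, the median of all genes lay at 0.25, and all 7 hosts were higher in replicate 2. Gas5 (0.34), Snhg6 (0.35) and Snhg8 (0.40) were then past 0.32, 3 of 7 hosts, against 29.4% of 12651 genes under this scaling. In the second quantification 1 host, Snhg8 (0.42), was past it, against 5.98% of genes, from 61 and 79 counts, and Snhg20 turned from -0.22 to 0.08 and Snhg1 from -0.14 to 0.02. Snhg3, under the count minimum and so not among the 7, went from -0.04 to 0.36 there, from 45 and 56 counts.

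**Figure D5:**
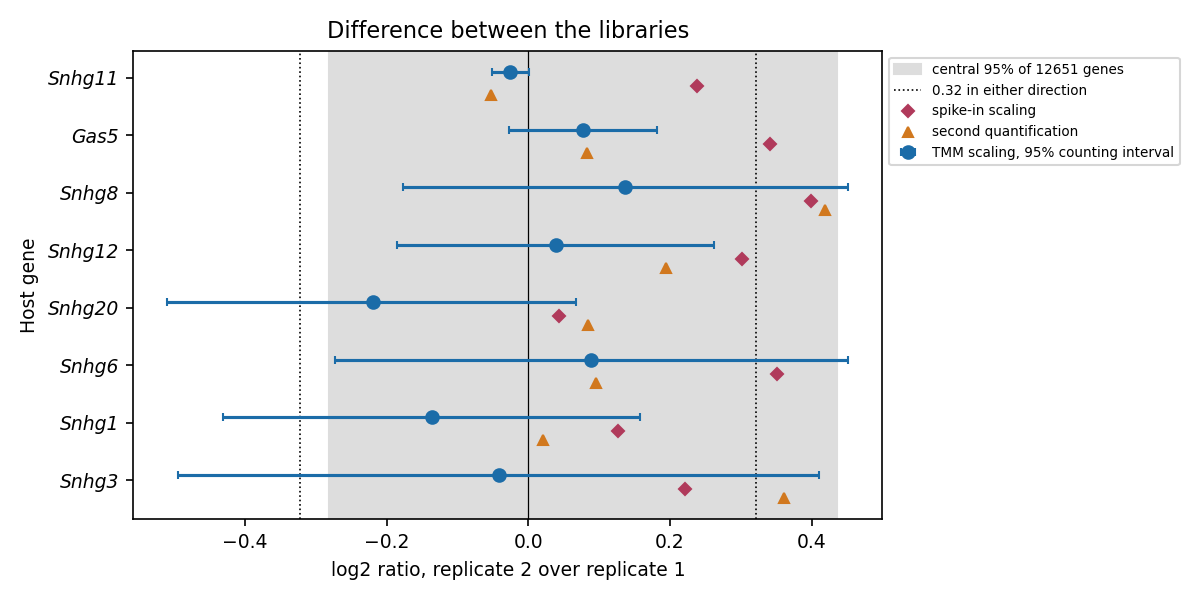
Log2 ratio of replicate 2 over replicate 1 for each host gene after TMM scaling (blue, with 95% counting interval), after spike-in scaling (dark red diamonds) and in the second quantification (orange triangles); grey is the central 95% of 12651 genes and dotted lines are 0.32 in either direction. All blue points lie between the dotted lines, and the spike-in points lie to their right by 0.26.

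The snoRNA and scaRNA genes had higher ratios than their hosts. All 6 genes inside the hosts whose mean count reached 10 had higher counts in replicate 2, with ratios of 0.44 for Snora73b, 0.37 for Snora73a, 0.46 for Gm26083, 0.24 for Snord22, 0.39 for Gm25129 and 1.45 for Snora44. For Snora73b the interval was 0.32 to 0.57 for Snora73a 0.22 to 0.52, for Gm26083 0.14 to 0.78 and for Snora44 0.50 to 2.59. The intervals of Snord22 (-0.34 to 0.82) and Gm25129 (-0.79 to 1.63) included 0. Except for Gm25129, the counts of these genes were not whole, so reads were shared, and the intervals do not cover that. Snhg20 and Gm26083 together held 370 and 372 counts, so the ratio of Gm26083 depends on how that sum was divided. Over the whole annotation 54 of 60 such genes were higher in replicate 2, with a median of 0.31, against 50.5% of all genes with that count. The shift was thus not particular to the small RNAs of these hosts.

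Cell type markers also differed between the libraries. The summed level of 8 choroid plexus genes was 26.7 TPM in replicate 1, against 1293 in replicate 2, and all 7 compared were past 2-fold. Of 6 oligodendrocyte genes, 5 were lower in replicate 2 past 0.32, with a median ratio of -0.35. The summed level of 6 meningeal fibroblast genes was 54.3 and 106 TPM, and all 5 compared were higher in replicate 2, 4 of them past 0.32. Neuronal and astrocyte markers had 0 of 6 genes each past 0.32, and these markers were detected in both libraries. All 6 neuronal markers were lower in replicate 2, with ratios from -0.24 to -0.03 and a median of -0.14. Astrocyte ratios ran from -0.03 to 0.09, with a median of -0.02. The part of these cell types in the ratios of the hosts was not tested.

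The start of each RNA was read from RefSeq promoters (build GRCm38.p6), which hold 7 of the 8 hosts and 8 starts, since Gas5 has 2. A start was called TOP-like where the first base is C and the pyrimidine run (C or T) is at least 5 bases, a definition applied after the sequences were seen. The windows below run from 20 bases before the start to 30 bases from it on, with the pyrimidine run in capitals, and are shown to compare the TOP-like starts of Snhg8 and Gas5 with the near misses of Snhg1 and Snhg12.
Snhg8: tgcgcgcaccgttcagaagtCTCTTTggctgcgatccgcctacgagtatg
Gas5: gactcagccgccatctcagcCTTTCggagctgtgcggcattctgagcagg
Snhg1: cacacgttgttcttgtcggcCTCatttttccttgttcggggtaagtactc
Snhg12: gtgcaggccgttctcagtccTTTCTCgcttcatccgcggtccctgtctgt
These windows are chr3:123508307-123508356 (minus strand), chr1:161035146-161035195, chr19:8723467-8723516 and chr4:132308658-132308707. The run was 6 bases in Snhg8 and 5 at the second start of Gas5, 3 in Snhg1, and 6 in Snhg12 but with T as its first base. TOP-like starts were 2 of 8 for the hosts, 2.51% of all 32851 starts and 18.4% of 76 starts of cytosolic ribosomal protein genes. A different annotated start by a few bases would change these calls.

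Genes next to or overlapping a host limit how its reads can be assigned, and whether counting used the strand is not given in the sources used here. Rcc1, a chromatin-bound exchange factor for Ran, is on the same strand as Snhg3 and overlaps it by 5592 bases, at 5.08 ± 0.417 TPM. Zbtb37 overlaps Gas5 by 428 bases on the opposite strand, at 6.52 ± 0.212 TPM, and Mcmdc2 overlaps Snhg6 by 127 bases, at 0.720 ± 0.156 TPM. Slc3a2, the heavy chain of amino acid transporters, starts 105 bases from Snhg1 on the opposite strand, at 59.2 ± 1.27 TPM. Also on the opposite strand, Prss12 lies 954 bases from Snhg8, at 4.70 ± 0.269 TPM, and Trnau1ap 738 bases from Snhg12, at 8.44 ± 1.43 TPM. Gm17300 overlaps Snhg3 by 1611 bases on the opposite strand. Mir6516 lies inside Snhg20 over 110 bases on the same strand and overlaps Gm26083. Both had 0 counts in each library of the first quantification. Expected counts of Snhg1, Snhg3, Snhg8, Snhg12 and Snhg20 were not whole numbers in at least 1 library, so reads were shared with another gene. Their values are therefore uncertain. Counts of Snhg6, Snhg11 and Gas5 were whole, as were those of the neighbours named here. Host counts summed with those of the small RNAs inside were whole for Snhg1 (260 and 237), Snhg8 (169 and 175), Snhg12 (349 and 362) and Snhg20 (370 and 372). For Snhg3 the sums were 1678.99 and 2091.

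The genes that make and remove these RNAs were measured as well. All 8 core proteins of snoRNA particles were detected, led by Nop56 at 57.7 ± 0.460 TPM, Snu13 at 42.8 ± 0.163 TPM and Nop58 at 24.1 ± 0.799 TPM, proteins of the box C/D particle. The 11 assembly factors were all present, their median being 9.29 TPM, as were all 14 genes of nonsense-mediated decay, whose median was 19.0 TPM, led by the kinase gene Smg1 at 35.5 ± 2.49 TPM. In these 3 lists 0 genes were past 0.32 between the libraries. The list of 27 genes named as protein-coding snoRNA hosts was detected in full and had a median level of 99.5 TPM. Over the 246 detected protein-coding genes with a snoRNA inside, the median was 24.4 TPM. In GENCODE M21, Npm1 of this list has no snoRNA gene inside and Cct6a is typed as a processed transcript. The highest member of the list was Hspa8, a chaperone gene, at 868 ± 106 TPM, and 1 member was past 0.32. All 15 listed mRNAs with a pyrimidine start other than those of ribosomal proteins were detected, and 0 were past 0.32. Of 14 other non-coding hosts 11 were matched by symbol and 10 detected, with 0 of 5 compared past 0.32.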

How the data were processed

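Total RNA libraries of 2 samples were analysed from tables on mm10, per the labels. The authors deposited expected counts and TPM per gene and transcript, with the percent of its gene's TPM each transcript takes, and a second quantification with estimated counts and TPM, per the file headers. The deposited TPM bounds and posterior deviations are a signal of uncertainty. The bounds are given for Snhg1 and Snhg6 alone, and the deviations were not used. The sources used here name neither the software and its versions nor the use of strand. Effective lengths lay 99 bases below RNA length in the first quantification, so shorter RNAs could hold no counts. For long RNAs they lay 339 (replicate 1) and 325 bases (replicate 2) below it in the second.

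Genes were matched to GENCODE M21. The tables also held 96 spike-ins and 26248 numbered entries, which took 1.23e-05% and 1.62e-05% of counts and were left out. Expected counts were rounded and scaled with edgeR 4.0.16 (TMM, prior count 0.5) in R 4.3.3. Its common dispersion over 18246 genes gave a coefficient of variation of 0.0899. Alternatives were DESeq2 1.42.0 size factors, total counts, spike-ins, TPM, the second quantification and other minimums. The scaling was tested on simulated data with known fold changes. Intervals are exact (Clopper-Pearson) and cover counting error only. Reads were treated as shared where an expected count was over 0.005 from a whole number. The members and gene lists were chosen with earlier results of these data known. The genes named are the 8 hosts, the 3 with the highest TPM in a list, the leading small RNAs in each host and neighbours within 1 kb. Python 3.11.15 with pandas 2.3.3, numpy 2.4.6, scipy 1.17.1 and matplotlib 3.10.9 did the rest.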

Additional observations from a re-analysis of the deposited data

How the results depend on the processing

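The count of hosts past a log2 ratio of 0.32 between the libraries was 0, and became 3 with spike-in scaling, under which 29.4% of all genes were past it, and 1 in the second quantification. The median log2 ratio of the hosts became 0.30 with spike-in scaling, which shifts all genes alike. The count past 1.5-fold between the quantifications, whose alternatives were chosen after seeing the data, fell to 1 at 2-fold and was 2 without either replicate. The leading transcript was the same in 5 hosts without either replicate and in 4 by counts. Over the alternatives for single hosts, 16 of 32 levels, 9 of 63 log2 ratios and 9 of 28 shares moved by more than the spread. For levels and shares the spread is the SD of the 2 libraries, and leaving out a replicate cannot move a mean that far. Those settings are among the 32 and the 28, so the fractions understate how far levels and shares depended on the processing. The level moved for all 8 hosts both in the second quantification and with small structural RNAs and spike-ins left out of the total. With any exonic overlap in place of a whole snoRNA, the share for Snhg3 rose from 0 to 49.8% and for Snhg1 to 42.7%. No paired analysis was possible because there is 1 group. Depth limits Snhg3 most, with a mean of 84.6 counts.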

Other observations

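Other snoRNA and scaRNA genes were more abundant than those inside the 8 hosts. Scarna2, a Cajal body RNA, was at 871 and 881 TPM with a log2 ratio of 0.02 between the libraries, and Scarna10 at 706 and 713 TPM with 0.02, both below the median of 0.31 over the 60 small RNA genes compared. Snora74a (U19) was at 671 and 861 TPM, a ratio of 0.37. Of the small RNA genes inside the hosts, Snora73b had the highest mean TPM, at 436, after 5 other genes of the annotation.

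Among long non-coding hosts outside the 8, Zfas1, which carries 3 snoRNA genes, was at 21.48 and 24.59 TPM, close to Snhg8 and Snhg12.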
